A study of Mus musculus with 34 samples.

Results

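Astrocytes from the cortex of 3-month-old mice (3m, n = 5) were set against astrocytes from the cortex of mice at postnatal day 7 (P7, n = 4). These were 9 of the 34 libraries of a series that covers 9 ages, and each was assigned to its group by the age in its label. The ages were paired because earlier results of these data showed high cell cycle transcripts at both. The high cell cycle levels below were thus known before the choice and are no independent support for it. All mice were wild-type males, with no strain or treatment given, and the cells were taken from cortex by magnetic isolation. Polyadenylated RNA was amplified as cDNA with SMART-Seq v4, a kit for small amounts of RNA, and sequenced. Whether libraries of an age come from different mice is not given, and p-values then describe the spread between libraries, which may be technical. To ask what the ages share, each was also compared with the next age in the series, 3m with 6 months (6m, n = 5) and P7 with P14 (n = 4).

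Astrocytes of the mouse cortex divide locally in the first postnatal weeks and then largely leave the cell cycle as they take on glutamate uptake, potassium buffering and gap-junction coupling. A dividing cell first makes the enzymes that copy DNA and later the cyclins, kinases and spindle proteins of mitosis, so these 2 groups of transcripts report different phases of the cycle. In bulk RNA, a higher level can come from more cells of a type or from more RNA per cell, and fewer cells of a type and less RNA per cell cannot be told apart.

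Levels are given as TPM, a gene's share of all transcripts scaled to a fixed sum per library. Fold changes are differences of means on log2(TPM + 1), a scale that understates changes of low genes. They come from 1 limma model with a mean for each age over all 34 libraries, and a gene was called at a Benjamini-Hochberg adjusted p under 0.05 among 14590 genes tested. Read depth is unknown.

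Both groups carried abundant astrocyte transcripts. Slc1a3, the glutamate transporter GLAST, averaged 3003 ± 347 TPM at 3m (SD, n = 5) and 2667 ± 249 TPM at P7 (SD, n = 4). Aqp4, the water channel of astrocyte endfeet, averaged 716 ± 37.8 TPM at 3m (SD, n = 5) and 742 ± 63.9 TPM at P7 (SD, n = 4), and neither gene was called. Libraries of the same age correlated at 0.968 to 0.989 across genes at 3m and at 0.990 to 0.994 at P7. A 3m with a P7 library correlated at 0.956 to 0.972, a range that overlapped that within 3m. The number of genes listed at 0 TPM was 1419 ± 188 at 3m (SD, n = 5) and 4632 ± 111 at P7 (SD, n = 4), with no overlap, so an effect of age and an effect of this range cannot be told apart. The ages used as comparators lay close to their partners, with 1446 ± 197 genes at 0 at 6m (SD, n = 5) and 4668 ± 125 at P14 (SD, n = 4). Summed transcripts of 14 neuronal markers ranged from 216 to 1320 TPM at 3m and from 51.0 to 71.4 TPM at P7. Those of 13 ependymal markers, genes of the ciliated cells lining the ventricles, ranged from 1170 to 3770 TPM at 3m and from 612 to 813 TPM at P7. One library stood apart: 3m replicate 4 had the highest ependymal sum, the lowest neuronal sum and the highest mean of the mitosis genes of its age, and it is named below where it decides a result.

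**Figure D1:**
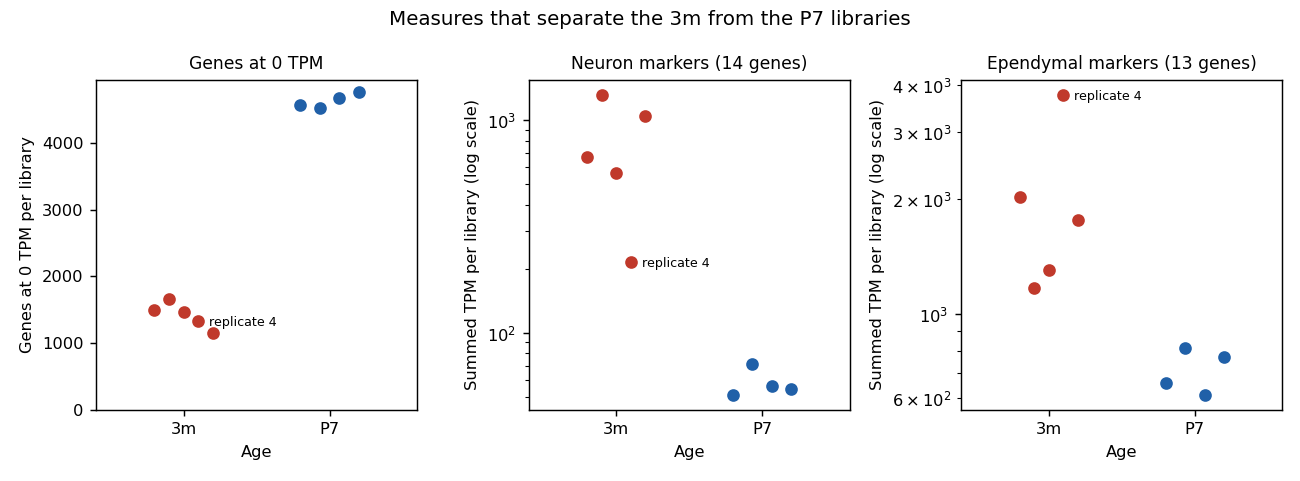
Genes listed at 0 TPM and the summed TPM of neuronal and ependymal markers (log scales), 1 point per library, for 3m (n = 5, red) and P7 (n = 4, blue). In each panel the groups do not overlap: genes at 0 lay between 1155 and 1656 at 3m and between 4522 and 4769 at P7, and 3m replicate 4 had the lowest neuronal sum (216 TPM) and the highest ependymal sum (3770 TPM) of the 3m libraries.

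The mitosis list, 52 genes of the spindle, kinetochore and mitotic kinases, stood high at both ages and low at the others. Its mean log2(TPM + 1) was 3.46 ± 0.15 at P7 (SD, n = 4), then 2.54 at P14, 2.10 at P21, 2.20 at P28 and 1.96 at P60. It was 3.28 ± 0.22 at 3m (SD, n = 5), then 2.41 at 6m, 2.24 at 12m and 1.94 at 18m. The 5 libraries of 3m lay between 3.14 and 3.66, above the highest 6m library at 2.95, and the 4 of P7 lay between 3.30 and 3.64, above the highest P14 library at 2.74. The list of 39 DNA replication genes followed the same course with a smaller range. Its mean was 3.57 ± 0.095 at P7 (SD, n = 4) and 2.76 at P60, 3.36 ± 0.18 at 3m (SD, n = 5) and 2.97 at 6m, where 1 library at 3.35 overlapped those of 3m.

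**Figure D2:**
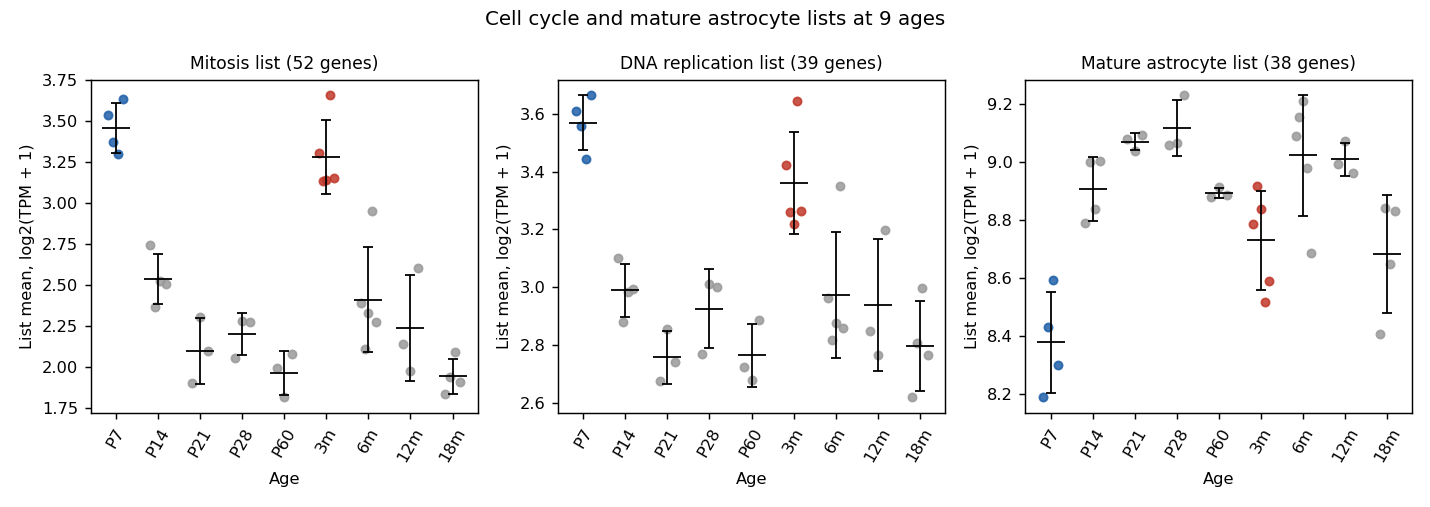
Mean log2(TPM + 1) of 3 gene lists in each of 34 libraries, by age from P7 to 18m; points are libraries, bars the mean and SD of an age, P7 in blue and 3m in red. The mitosis list averaged 3.46 at P7 and 3.28 at 3m and at most 2.54 at the other ages, and the mature astrocyte list was lowest at P7 (8.38).

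Of the 52 mitosis genes, 42 were called higher at 3m than at 6m, where 7.25% of all genes were, and 49 were called higher at P7 than at P14, where 8.57% were. The same 42 genes, 80.8% of the list, were called higher in both comparisons, against 1.79% of all genes (261 of 14590). Leaving out 1 library at a time gave 29 (without P7 replicate 4) to 46, and 37 without 3m replicate 4. The median SD per gene on the log2 scale was 0.178 at 3m, 0.297 at 6m and 0.13 at P7. When 3m and 6m were fitted alone, 1 mitosis gene was called, although 46 of 52 were higher at an unadjusted p under 0.05 and 51 had a positive fold change. With P60 in place of 6m, where 8.26% of all genes were called higher at 3m, 47 were higher in both, and 3m fitted with P60 alone also called 47, but P60 has more genes at 0 (2978 ± 140, SD, n = 3) than 3m.

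Genes that drive entry into mitosis were higher at both ages than at the next. Cyclin B1 (Ccnb1, chr13:100778650-100786570, minus strand, GRCm38) had 28.5, 23.1, 21.2, 32.4 and 24.9 TPM at 3m and 30.8, 24.9, 23.6 and 37.0 TPM at P7. All 3m libraries exceeded the highest 6m library (17.6 TPM), all P7 libraries exceeded the highest P14 library (14.3 TPM), and 3m and P7 overlapped. Its log2 fold change was 1.40 ± 0.24 for 3m over 6m (SE, adjusted p = 0.00103) and 1.25 ± 0.26 for P7 over P14 (SE, adjusted p = 0.00534). Cdk1 (chr10:69335146-69352938, minus strand), the kinase that cyclin B1 activates, had 30.2, 20.9, 23.6, 50.5 and 22.9 TPM at 3m and 35.9, 30.9, 29.1 and 38.6 TPM at P7. The 3m value of 50.5 TPM was that of replicate 4, and the rest lay below most of P7. Cdk1 averaged 11.8 ± 5.92 TPM at 6m (SD, n = 5) and 14.5 ± 2.58 TPM at P14 (SD, n = 4), and it was called in both comparisons (log2 fold changes of 1.33 and 1.16).

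Aurkb, the kinase of the chromosomal passenger complex, had 14.9, 14.9, 19.4, 17.5 and 14.8 TPM at 3m and 17.6, 15.8, 14.3 and 19.5 TPM at P7. At 6m no library exceeded 5.73 TPM and at P14 none exceeded 8.43 TPM, so neither age overlapped its comparator. The log2 fold change was 1.57 ± 0.14 for 3m over 6m (SE, adjusted p = 8.55e-08) and 1.10 ± 0.16 for P7 over P14 (SE, adjusted p = 0.000203). Ube2c, which hands ubiquitin to mitotic cyclins, and Pbk, a mitotic kinase, had log2 fold changes of 1.46 and 1.39 for 3m over 6m. For P7 over P14 they were 1.11 and 1.2. Plk1, the polo-like kinase of the centrosome and kinetochore, was 1.21 in each comparison. Ccnb2 averaged 11.2 ± 6.80 TPM at 3m (SD, n = 5), but replicate 4 had 23.3 TPM and no other 3m library exceeded 9.10 TPM. Mki67, the proliferation antigen, was low at every age, with 1.96 ± 0.481 TPM at 3m (SD, n = 5), 0.85 TPM at 6m, 2.32 ± 0.461 TPM at P7 (SD, n = 4) and 0.792 TPM at P14. It was called higher in both comparisons, as were Top2a, the topoisomerase that untangles sister chromatids, and cyclin A2 (Ccna2). Ube2c shares exon sequence with Tnnc2, and Ccna2 with Exosc9, both on the opposite strand, and the sources used here do not say whether counting used strand.

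The promoters of 5 of these genes are shown because the genes moved together in both comparisons. Each is the 120 bases before the transcription start in the RefSeq annotation of GRCm38.p6, on the gene's strand, with capitals marking CCAAT boxes (letters CCAAT) and cell cycle homology regions (CHR, letters TTTGAA) on either strand. The CCAAT box is bound by NF-Y and the CHR by the MuvB complexes that control genes of G2 and mitosis.
Ccnb1, chr13:100786487-100786606, minus strand: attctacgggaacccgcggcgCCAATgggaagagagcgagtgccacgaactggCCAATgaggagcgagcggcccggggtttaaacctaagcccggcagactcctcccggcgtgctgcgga
Cdk1, chr10:69352913-69353032, minus strand: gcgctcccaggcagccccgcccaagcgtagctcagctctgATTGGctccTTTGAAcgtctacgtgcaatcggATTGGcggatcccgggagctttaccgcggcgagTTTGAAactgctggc
Ccnb2, chr9:70421555-70421674, minus strand: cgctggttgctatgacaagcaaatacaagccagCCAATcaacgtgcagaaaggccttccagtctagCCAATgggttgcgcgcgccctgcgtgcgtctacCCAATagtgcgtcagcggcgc
Ube2c, chr2:164769809-164769928, plus strand: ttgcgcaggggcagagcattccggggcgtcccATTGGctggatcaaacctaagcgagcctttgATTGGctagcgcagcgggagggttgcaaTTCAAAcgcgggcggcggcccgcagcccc
Plk1, chr7:122159315-122159434, plus strand: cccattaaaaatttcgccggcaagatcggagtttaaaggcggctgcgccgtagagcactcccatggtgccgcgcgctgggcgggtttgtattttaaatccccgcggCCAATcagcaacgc

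Ccnb2 holds 3 CCAAT boxes in this window, Ccnb1, Cdk1 and Ube2c hold 2 each, and Plk1 holds 1. A promoter was matched by symbol for 35 of the 42 mitosis genes called higher in both comparisons. Of these, 27 (77.1%) held a CCAAT box and 16 (45.7%) held at least 2. Among all 27025 genes of the promoter table, 24.2% held at least 1 and 5.37% at least 2, and among the 11536 tested genes with a promoter 28.1% and 8.03%. The CHR letters were in 10 of the 35 (28.6%) and in 8.28% of all genes, and both motifs were in 8 of the 35 (22.9%) and in 2.11% of all genes. The whole mitosis list, which includes these 35, had 44 genes with a promoter. Of these 44, 68.2% held a CCAAT box, 40.9% at least 2, 27.3% the CHR letters and 20.5% both motifs. Of the 30 list genes with a CCAAT box, 27 were among the 35. The shares of the whole list thus do not show whether the motifs go with the calls. Among the 33 DNA replication genes with a promoter, 48.5% held a CCAAT box and 9.09% the CHR letters. A match shows that these letters are in the window, and no binding was measured.

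Of 39 DNA replication genes, 15 were called higher at 3m than at 6m and 22 higher at P7 than at P14, with 12 in both: Uhrf1, Mcm2, Mcm3, Mcm5, Mcm7, Mcm10, Cdc6, Rrm2, Chaf1b, Hells, Tk1 and Lig1. Over all genes the shares were 7.25%, 8.57% and 1.79%. Rrm2, the regulated subunit of ribonucleotide reductase, had 33.1, 27.2, 28.9, 35.3 and 28.5 TPM at 3m and 36.2, 30.8, 27.3 and 37.3 TPM at P7, and the ages overlapped. It rose by 0.81 ± 0.15 over 6m (SE, adjusted p = 0.00211) and by 0.84 ± 0.17 over P14 (SE, adjusted p = 0.004) on the log2 scale. The helicase subunits Mcm2 and Mcm5 rose over 6m by 0.74 and 0.81 and over P14 by 0.79 and 0.84. The count in both was 7 without P7 replicate 1, P7 replicate 4 or P14 replicate 2, and 7 under quantile normalization. Among 18 tested genes for G1 cyclins, their kinases and inhibitors, 1 was higher in both, cyclin D2 (Ccnd2), a partner of Cdk4 and Cdk6. Ccnd2 had 297, 241, 252, 334 and 247 TPM at 3m and 323, 292, 315 and 322 TPM at P7. It averaged 178 ± 62.0 TPM at 6m (SD, n = 5), where the highest library reached 239 TPM, and 146 ± 7.78 TPM at P14 (SD, n = 4). Cyclin D1 (Ccnd1) was called in neither comparison, with log2 fold changes of 0.39 and 0.45, and it shares exon sequence with the gene LTO1 on the opposite strand.

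Over all genes tested, the cell cycle genes above included, 261 were called higher in both comparisons, 24.7% of the 1058 higher at 3m than at 6m and 20.9% of the 1250 higher at P7 than at P14. Leaving out 1 library moved this count by over 1.5 times for 8 libraries, to 132 without P7 replicate 4, 141 without P14 replicate 2, 156 without P14 replicate 4, 157 without 3m replicate 5, and 162, 166, 173 and 173 without P7 replicates 1 and 2, P14 replicate 3 and 3m replicate 4. Genes called in opposite directions numbered 38 (higher at 3m than at 6m, lower at P7 than at P14) and 21 (the reverse). The median log2 fold change of all genes was 0.08 for 3m over 6m and 0.10 for P7 over P14. After median-of-ratios rescaling, which brought these medians to 0.02 and 0.00, the calls were 1020 higher and 888 lower for 3m against 6m, in place of 1058 and 302. For P7 against P14 they were 609 higher and 1068 lower, in place of 1250 and 478. The count of mitosis genes higher in both was 42 under that rescaling too, and 35 under quantile normalization. With each pair of ages fitted alone, 3 genes were called higher in both and 2 lower in both, since 3m against 6m alone called 5 higher and 2 lower (2061 and 489 at an unadjusted p under 0.05). With the means of neuronal and ependymal markers as covariates, a setting chosen after seeing the data, 13 were higher in both and 2 lower, and 9 mitosis genes were higher in both. Ependymal markers moved with 1 of the comparisons, 13 of 13 being called higher at 3m than at 6m and 0 of 13 at P7 than at P14. Neuronal markers gave 6 of 14 higher at 3m than at 6m, and 0 higher and 4 lower of 14 at P7 than at P14. Fibroblast markers had a median log2 fold change of 0.61 in each comparison, with 3 of 9 called higher at 3m than at 6m and 0 of 9 called at P7 against P14, where their values ran from 0.21 to 0.73. Their summed level was 637 ± 222 TPM at 3m (SD, n = 5) and 485 ± 219 TPM at 6m (SD, n = 5). It was 847 ± 205 TPM at P7 (SD, n = 4) and 540 ± 59.2 TPM at P14 (SD, n = 4), and the part of these markers in the shared genes was not tested. Of 143 tested markers on 12 lists of other cell types, 0 were called higher and 0 lower in both, against 1.79% and 0.576% of all genes. With shares this low, lists of this size would hold few such calls.

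**Figure D3:**
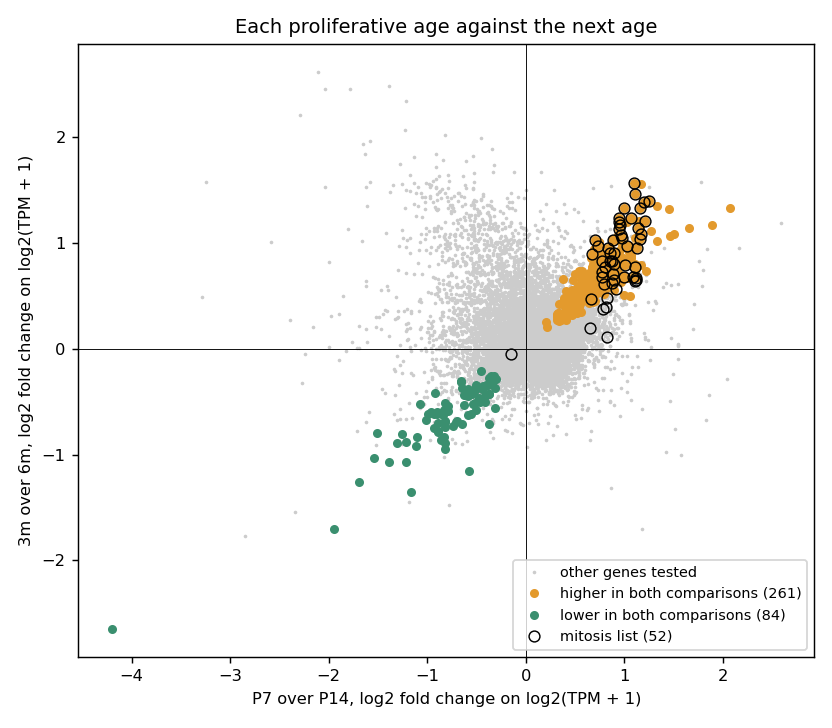
Log2 fold changes on log2(TPM + 1) of P7 over P14 (x axis) and of 3m over 6m (y axis), 1 point per gene tested; orange and green mark the 261 genes higher and the 84 genes lower in both, circles the 52 mitosis genes. Most circles lie in the upper right, with values of 1.40 and 1.25 for Ccnb1, and the lowest green point is Etnppl (-2.65 and -4.20).

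Cytoskeletal genes of immature cells were among those shared. Tubulins and their companions on this list gave 6 of 18 higher in both, Tubb5, Tuba1a, Tuba1b, Stmn1, Dpysl3 and Marcksl1, and 1 lower in both, Tubb2a. Of all genes, 1.79% were higher and 0.576% lower in both. Marcksl1, an actin-binding protein of the MARCKS family, had 146, 108, 108, 254 and 203 TPM at 3m and 215, 208, 212 and 230 TPM at P7. It spanned a wide range at 3m that included the P7 values, and it averaged 61.3 ± 38.5 TPM at 6m (SD, n = 5) and 96.0 ± 8.29 TPM at P14 (SD, n = 4). Its log2 fold change was 1.56 ± 0.33 over 6m (SE, adjusted p = 0.00534) and 1.17 ± 0.37 over P14 (SE, adjusted p = 0.0385). Rtn1, a reticulon of the endoplasmic reticulum, had 218, 239, 176, 288 and 330 TPM at 3m and 303, 256, 274 and 332 TPM at P7, and no 6m or P14 library exceeded 134 TPM. It rose by 1.35 ± 0.24 over 6m (SE, adjusted p = 0.00139) and by 1.33 ± 0.27 over P14 (SE, adjusted p = 0.00369).

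Of 24 genes of progenitors and immature astroglia, 2 were higher in both, Tnc and Sox4, against 1.79% of all genes. Tenascin-C (Tnc), a matrix glycoprotein of progenitor zones, had 33.1, 20.7, 26.3, 27.2 and 21.4 TPM at 3m and 35.1, 29.7, 34.5 and 38.6 TPM at P7. It averaged 12.6 ± 7.08 TPM at 6m (SD, n = 5), with 1 library at 22.8 TPM inside the 3m range, and 10.4 ± 2.02 TPM at P14 (SD, n = 4). Its fold change over 6m was 1.14 (adjusted p = 0.0366) and fell short of the threshold without 3m replicate 4 (adjusted p = 0.0659). Slc14a2, a urea transporter, had the largest fold change over P14 of the 15 named shared genes (2.07), and 1.33 over 6m. Its 3m values were 46.4, 28.8, 19.3, 93.0 and 40.3 TPM, against 62.7, 51.4, 65.3 and 74.5 TPM at P7. Without replicate 4, its fold change over 6m was 1.03 (adjusted p = 0.112). Kcnmb4, a subunit of calcium-activated potassium channels, rose by 1.17 over 6m and 1.89 over P14, Emp1, an epithelial membrane protein, by 1.32 and 1.45, Pde1b, a cyclic nucleotide phosphodiesterase, by 1.09 and 1.5, and Dpysl3, a cytoskeletal regulator of growing processes, by 1.11 and 1.27.

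The 84 genes lower in both comparisons, 0.576% of all, were 27.8% of the 302 lower at 3m than at 6m and 17.6% of the 478 lower at P7 than at P14 (2.07% and 3.28% of all genes). Without 3m replicate 5 there were 46. They included 6 of 38 genes of mature astrocytes: Etnppl, Ntsr2, Cldn10, Glul, Slc7a10 and Gjb6. Of that list, 9 were lower and 0 higher at 3m than at 6m, and 17 were lower and 1 higher at P7 than at P14. Without 3m replicate 4, 3m replicate 5 or 6m replicate 3, 3 were lower in both. Etnppl, which degrades phosphoethanolamine, had 17.8, 18.6, 31.7, 2.28 and 6.20 TPM at 3m and 0.0346, 5.34, 3.93 and 0.0447 TPM at P7. It averaged 104 ± 85.2 TPM at 6m (SD, n = 5), 47.6 ± 26.8 TPM at P14 (SD, n = 4) and 308 ± 8.10 TPM at P60 (SD, n = 3). Its fold change was -2.65 ± 0.74 over 6m (SE, adjusted p = 0.026) and -4.20 ± 0.82 over P14 (SE, adjusted p = 0.00361), and without 3m replicate 4 the first was not called (adjusted p = 0.0752).

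Connexin 30 (Gjb6), a gap-junction channel of astrocytes, had 543, 569, 1100, 540 and 637 TPM at 3m and 495, 460, 422 and 401 TPM at P7. All 3m libraries were above all P7 libraries, and apart from the 1100 TPM of replicate 3 they were below the lowest 6m library, at 951 TPM. The potassium channel Kcnk1 had 191, 257, 428, 217 and 271 TPM at 3m and 132, 169, 187 and 131 TPM at P7, against 677 ± 263 TPM at 6m (SD, n = 5) and 502 ± 100 TPM at P14 (SD, n = 4). It fell by 1.26 ± 0.27 against 6m (SE, adjusted p = 0.00537) and by 1.69 ± 0.30 against P14 (SE, adjusted p = 0.00151). The other genes named by the same rule were Lgi1, a secreted epilepsy-linked protein, Mertk, a phagocytic receptor, F3 (tissue factor), the sphingosine 1-phosphate receptor S1pr1, the orphan receptor Gpr37l1, the histamine receptor Hrh1, the adhesion proteins Amigo2 and Cadm1 and the protease Htra1. Cyp2d22, Cables1 and Nat8, an acetyltransferase, completed the set. Their fold changes lay between -0.81 for Htra1 and -1.70 for Lgi1 against 6m, and between -0.82 for Nat8 and Cadm1 and -1.95 for Lgi1 against P14.

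Set directly against each other, the ages differed in 3532 of 14590 genes (24.2%), with 2119 higher at 3m (14.5%) and 1413 lower (9.68%). The median log2 fold change over all genes was -0.01, and for 12031 genes (82.5%) the 95% interval lay within -1 to 1. Under quantile normalization the split turned to 1714 higher and 2232 lower. With the means of neuronal and ependymal markers as covariates it was 197 higher and 278 lower. With 3m replicate 4 left out it was 1937 higher and 1598 lower, and leaving out any of the 9 libraries gave 1630 to 2020 higher and 1034 to 1598 lower. The number of genes at 0 bears on the higher calls: 120 of them were listed at 0 in all 4 P7 libraries and 290 in at least 1, while 3 of the lower calls were listed at 0 in all 5 libraries of 3m. Chemoreceptor genes, known for smell and taste, summed to 259 ± 41.7 TPM at 3m (SD, n = 5) and 27.8 ± 4.06 TPM at P7 (SD, n = 4), and 58 of the 71 tested were called higher at 3m. The 10409 genes that averaged 5 TPM or more over all libraries held 1075 of the higher and 1335 of the lower calls. By the median absolute difference between age means, 0.226 on the log2 scale, 3m and P7 ranked 21 of the 36 pairs of ages, with the closest pair ranked first. The nearest age to 3m was 6m (0.162), and the nearest to P7 was P14 (0.222). Neither held under every setting: among genes with means of 5 TPM or more the nearest to P7 was 3m (0.204, against 0.217 for P14). Other measures went the other way there. Means differed by 1 or more on the log2 scale for 467 genes between 3m and P7, and for 212 between P14 and P7. Correlations across genes were 0.962 and 0.978. After median-of-ratios rescaling the nearest to 3m by the median difference was P21 (0.151, against 0.162 for 6m).

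**Figure D4:**
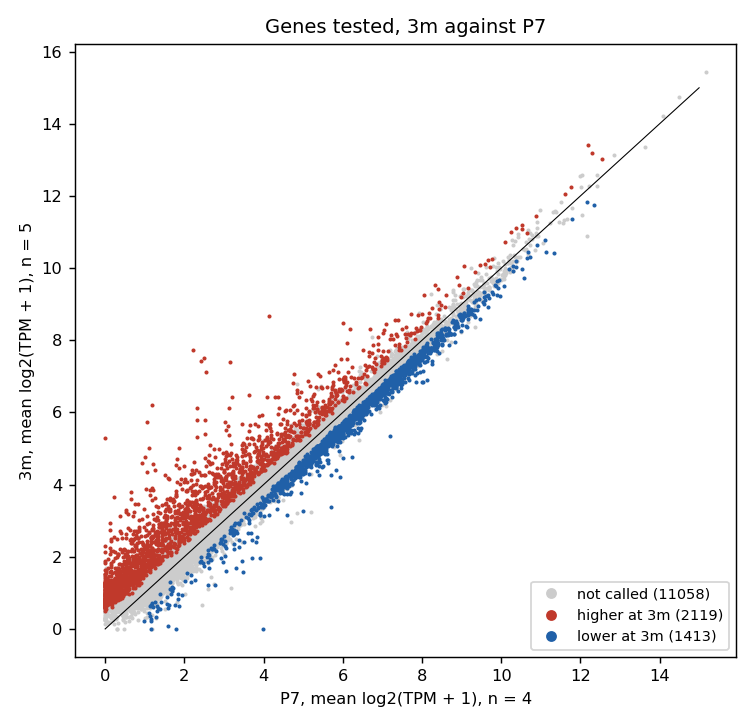
Mean log2(TPM + 1) of each gene tested at 3m (y axis, n = 5) and at P7 (x axis, n = 4), with equality as a line. The 2119 genes higher at 3m (red) include many near 0 at P7, and the 1413 lower at 3m (blue) lie at higher levels.

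Few cell cycle genes were among the calls of 3m against P7. Of the 52 mitosis genes, 0 were higher and 1 was lower at 3m, the list median was -0.17, and 50 of the 52 intervals lay within -1 to 1. Only 2 of the 52 had a positive fold change, so most stood slightly lower at 3m without being called. Mki67 differed by -0.17 (95% interval -0.50 to 0.16), Top2a by -0.16 (-0.57 to 0.26), Ccnb1 by -0.15 (-0.66 to 0.37) and Cdk1 by -0.25 (-0.83 to 0.33) on the log2 scale. The called gene was anillin (Anln), a scaffold of the cytokinetic ring, with 2.65, 3.05, 2.25, 2.35 and 2.69 TPM at 3m and 5.41, 5.75, 5.37 and 3.97 TPM at P7. The groups did not overlap and the fold change was -0.76 ± 0.26 (SE, adjusted p = 0.0331), but without 3m replicate 4 the adjusted p was 0.0547. Under quantile normalization 8 mitosis genes were lower at 3m, Mki67 among them (-0.45, adjusted p = 0.0191).

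DNA replication genes gave 0 higher and 5 lower of 39, against 14.5% and 9.68% of all genes. The list median was -0.20, and 38 intervals lay within -1 to 1. The sliding clamp Pcna had 72.7, 73.9, 74.7, 73.8 and 78.7 TPM at 3m and 112, 105, 102 and 112 TPM at P7. All 3m libraries were below all P7 libraries, and the gene fell by 0.52 ± 0.13 (SE, adjusted p = 0.00416). Rfc4, a subunit of the loader of that clamp, fell by 0.60 and the primase Prim1 by 0.54, each with 3m replicate 4 inside the P7 range. Rfc4 shares exon sequence with Eif4a2 on the opposite strand. Slbp and Rfc3 were the other called genes, and 14 of the list were lower under quantile normalization. Among G1 regulators 1 was higher, the pocket protein Rb1, at 0.54 ± 0.14 (SE, adjusted p = 0.00479), which overlaps exons of Lpar6 and Rcbtb2, and 4 were lower: Cdk4, the inhibitor Cdkn2d and the factors E2f4 and E2f5. Cdkn2d averaged 51.0 ± 3.35 TPM at 3m (SD, n = 5) and 68.1 ± 2.5 TPM at P7 (SD, n = 4), a change of -0.41 ± 0.08 (SE, adjusted p = 0.000373).

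The largest rises at 3m relative to P7 included neuronal genes and the myelin genes Mobp and Mbp. The 15 largest rises, among called genes of at least 5 TPM with no overlap, were Nrsn1, Mobp, Camk2a, Hpcal4, Kif5a, Slc17a7, Nrgn, Mbp, Gng13, Nefl, Psd, Rims1, Rasgef1a, Zfp365 and Ddn. They include vesicular glutamate transporter 1 (Slc17a7), neurogranin (Nrgn), neurofilament light chain (Nefl), the synaptic kinase Camk2a and the myelin proteins Mobp and Mbp. All 14 neuronal markers were called higher, with a median of 2.14. Nrgn had 162, 276, 122, 36.9 and 253 TPM at 3m and 4.92, 5.10, 5.03 and 4.54 TPM at P7. Replicate 4 was the lowest 3m library and still above every P7 library, and the fold change was 4.57 ± 0.93 (SE, adjusted p = 0.000943). Slc17a7 had 54.3, 105, 47.2, 13 and 112 TPM at 3m and 0.824, 1.49, 1.08 and 0.994 TPM at P7, a fold change of 4.69 ± 0.88 (SE, adjusted p = 0.000521). Mobp was listed at 0 in all P7 libraries and had 109, 212, 61.6, 1.75 and 23.1 TPM at 3m. Mbp had 844, 1500, 586, 46.8 and 323 TPM at 3m and 15.5, 16.9, 18.6 and 15.8 TPM at P7 (adjusted p = 0.0247). These were the only 2 of 14 oligodendrocyte markers called, a share like that of all genes, and the list had a median of 0.37 and a range from -0.51 to 5.31. The summed neuronal markers given above include Camk2a, Kif5a, Slc17a7, Nrgn and Nefl, so their sum moves with these named genes in part by construction. The part of neurons in these values was not tested. Nefl shares exon sequence with its neighbour Nefm on the opposite strand, Gng13 with Chtf18 and Psd with Nfkb2.

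Markers of other cell types were mixed, and their counts stand against 14.5% of all genes called higher and 9.68% called lower. Of 13 ependymal markers 12 rose, with a median of 1.21. Sntn, a protein of motile cilia tips, had 58.0, 21.5, 27.3, 109 and 46.5 TPM at 3m and 7.53, 9.58, 4.93 and 8.07 TPM at P7, with the highest value in replicate 4. It rose by 2.45 ± 0.44 (SE, adjusted p = 0.000304), and the ciliary genes Ccdc153 and Ak7 by 2.12 and 2.09. Of 18 microglia and macrophage markers 5 rose, Siglech (1.57) and Cx3cr1 (1.32) among them, both below 6 TPM in every 3m and P7 library. Of 10 choroid plexus markers 3 rose, Sostdc1 (1.67), Folr1 (1.73) and Prlr, but the list ran from -1.75 to 1.73 and its summed level was 131 ± 74.3 TPM at 3m (SD, n = 5) and 129 ± 98.8 TPM at P7 (SD, n = 4). Endothelial (18), fibroblast (9), erythroid (6) and lymphocyte (5) markers gave 0 calls either way, and pericyte markers 1 higher, Acta2, of 13. Neuroblast markers gave 4 higher and 1 lower of 9 tested. The Y-linked Ddx3y averaged 38.2 ± 3.40 TPM at 3m (SD, n = 5) and 28.5 ± 1.34 TPM at P7 (SD, n = 4) and was not called (adjusted p = 0.098).

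**Figure D5:**
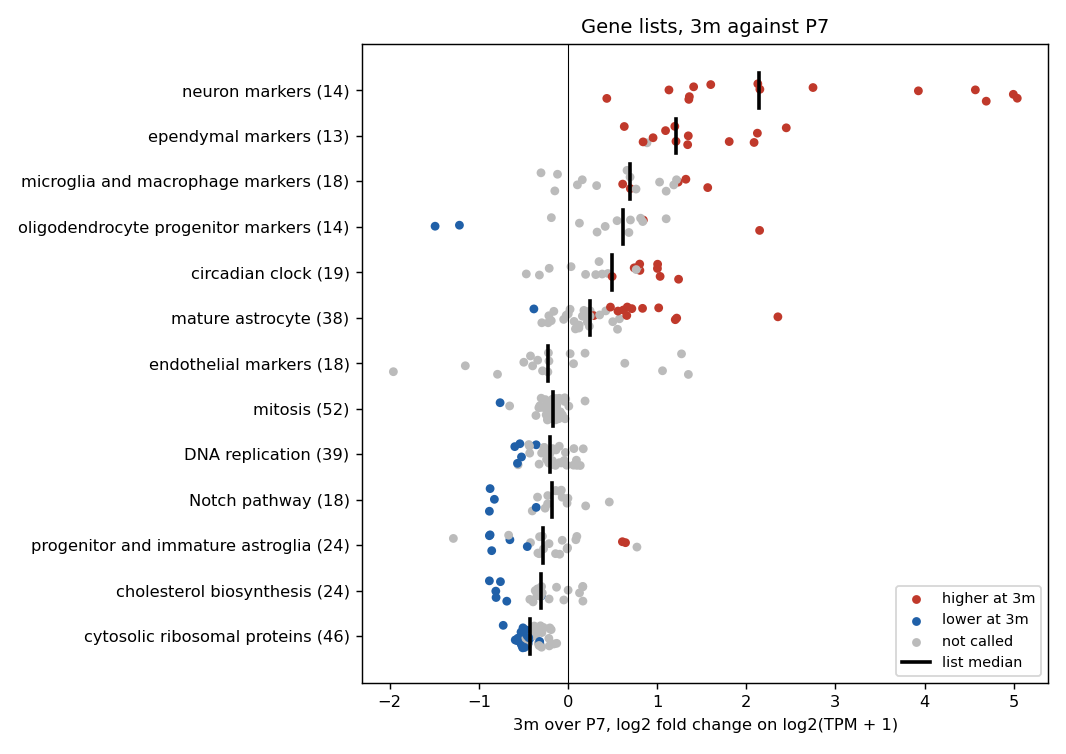
Log2 fold changes on log2(TPM + 1) of 3m over P7 for members of 13 gene lists (number tested in brackets), 1 point per gene; red and blue mark genes called higher and lower at 3m, grey genes not called, black bars list medians. Neuronal (median 2.14) and ependymal markers (1.21) lie right of 0, mitosis genes cluster near it (-0.17), and ribosomal protein genes lie left of it (-0.43).

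Of 38 genes of mature astrocyte function, 12 rose at 3m and 1, Aldh1l1, fell, with a median of 0.24. Of all genes, 14.5% were called higher and 9.68% lower. Slc1a2, the glutamate transporter GLT-1, had 443, 580, 431, 308 and 398 TPM at 3m and 185, 206, 260 and 192 TPM at P7. The groups did not overlap, and it rose by 1.02 ± 0.20 (SE, adjusted p = 0.000636). Clusterin (Clu), a secreted chaperone, had 12500, 14800, 12300, 7600 and 8780 TPM at 3m and 4030, 5090, 5170 and 4460 TPM at P7, and rose by 1.22 ± 0.29 (SE, adjusted p = 0.00326). Atp1b2, a sodium pump subunit, rose by 0.67 and the calcium-binding protein S100b by 1.2. The intermediate filament Gfap averaged 739 ± 217 TPM at 3m (SD, n = 5) and 837 ± 132 TPM at P7 (SD, n = 4), a difference of -0.22 that was not called (95% interval -0.85 to 0.40). Aldoc, the brain aldolase, differed by 0.58 (adjusted p = 0.102), and without replicate 4, which had 2970 TPM against 5960 to 9020 TPM in the other 3m libraries, by 0.83 (adjusted p = 0.00806). Aldh1l1, a folate enzyme used as an astrocyte marker, averaged 224 ± 34.5 TPM at 3m (SD, n = 5) and 291 ± 36.0 TPM at P7 (SD, n = 4), and its call was lost without replicate 4 (adjusted p = 0.0775). With the means of neuronal, oligodendrocyte and endothelial markers as covariates, 3 of the list were called higher and the change of S100b was -0.10.

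Thrombospondin 4 (Thbs4; chr13:92751590-92794818, minus strand, GRCm38), a secreted synapse-promoting protein, had the smallest p of the astrocyte-secreted factors. It had 32.3, 41.8, 51.9, 41.1 and 38.9 TPM at 3m and 5.11, 11.1, 11.9 and 5.14 TPM at P7. The groups were far apart, and the gene rose by 2.26 ± 0.20 (SE, adjusted p = 9.65e-09). Its relative Thbs3, which shares exon sequence with Mtx1, fell by 0.62. Of the 20 factors 3 rose and 1 fell, where 14.5% and 9.68% of all genes did. Gas6, a ligand of Mertk and its family, rose by 1.40 ± 0.25 (SE, adjusted p = 0.000303), with 110, 74.2, 81.0, 212 and 85.9 TPM at 3m and 31.3, 51.9, 40.4 and 34.1 TPM at P7. Replicate 4 gave the value of 212 TPM, and the groups did not overlap without it either. Of 32 growth factor signalling genes, the growth factor Fgf1 (0.70) and the neurotrophin receptor Ntrk2 (0.58) rose and the ETS factor Etv4 (-1.01) fell.

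Circadian clock genes gave 8 higher and 0 lower of 19, with a median of 0.50, against 14.5% higher and 9.68% lower of all genes. Tef and Hlf, both PAR bZIP factors of the clock output, averaged 116 ± 23.9 and 35.8 ± 10.1 TPM at 3m (SD, n = 5) and 65.2 ± 6.22 and 19.6 ± 2.37 TPM at P7 (SD, n = 4). They rose by 0.80 and 0.81, with no overlap between ages. Dbp, an output factor of the same family, and Nr1d1, a repressor of the core clock, were also among the genes called. The labels used here do not give the hour of collection. The orphan nuclear receptor Rorb rose by 0.69. The immediate early gene Arc had 13.3, 40.3, 28.8, 7.47 and 12.4 TPM at 3m and 1.69, 2.23, 2.0 and 2.16 TPM at P7, and rose by 2.60 ± 0.74 (SE, adjusted p = 0.0116). The Polycomb genes Cbx6 and Cbx8 rose by 1.09 and 0.60, in a list of 22 with 4 higher and 1 lower, and Cbx6 shares exon sequence with Npcd on its own strand, so its value is uncertain. Lin28b, an RNA-binding protein of early development, was called higher (0.89) at levels from 0.572 to 1.59 TPM at 3m and from 0 to 0.379 TPM at P7.

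The genes with the largest falls at 3m included the MHC class II genes H2-Aa, H2-Ab1 and H2-Eb1, whose products present antigen, and Cd74, their invariant chain. H2-Aa (chr17:34282744-34287823, minus strand, GRCm38) had 1.4, 0.92, 2.08, 4.17 and 2.23 TPM at 3m and 13.5, 10.3, 7.85 and 9.38 TPM at P7. All P7 libraries were above all 3m libraries, and it fell by 1.90 ± 0.32 (SE, adjusted p = 0.000163). H2-Ab1 averaged 10.1 ± 6.32 TPM at 3m (SD, n = 5) and 30.8 ± 2.06 TPM at P7 (SD, n = 4). H2-Eb1 averaged 4.37 ± 1.15 TPM at 3m (SD, n = 5) and 13.2 ± 1.74 TPM at P7 (SD, n = 4). Cd74 had 6.75, 5.11, 8.64, 10.5 and 10.1 TPM at 3m and 28.8, 25.2, 19.3 and 20.2 TPM at P7, and the 4 genes fell by 1.42 to 1.90. Summed microglia and macrophage markers overlapped, with 170 to 286 TPM at 3m and 111 to 204 TPM at P7. Of 18 tested, 5 were called higher at 3m, where 14.5% of all genes were. Summed lymphocyte markers were low, with 6.43 to 9.54 TPM at 3m and 2.88 to 6.01 TPM at P7, and 0 of 5 tested were called. The part of such cells in the MHC class II values was not tested. MHC class I presentation genes gave 0 higher and 2 lower of 17, the proteasome activators Psme1 (-0.53) and Psme2.

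Exosc6, a subunit of the RNA exosome, had the largest fall. It was listed at 0 in all 3m libraries and had 18.0, 17.6, 9.28 and 16.3 TPM at P7. It was also listed at 0 in all libraries of 6m, 12m and 18m and averaged 7.63 TPM at P60. Its single exon (chr8:111056339-111057664, plus strand, GRCm38) lies wholly within exon sequence of Aars on the same strand, over 1326 bases, so reads could be counted for either gene, and it is uncertain. Aars, alanyl-tRNA synthetase, averaged 32.9 TPM at 3m and 35.4 TPM at P7 and was not called (adjusted p = 0.442).

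Other genes fell by similar amounts. Angptl4, an inhibitor of lipoprotein lipase, had 46.1, 18.4, 24.3, 68.9 and 69.7 TPM at 3m and 146, 141, 134 and 159 TPM at P7, and fell by 1.84 ± 0.32 (SE, adjusted p = 0.000267). Every P7 library held over 130 TPM and no 3m library over 70 TPM. The protease inhibitor Timp1 fell by 1.58, the serine protease Htra3 by 1.46, the proteoglycan Gpc3 by 1.43 and Fgfbp3, a carrier of fibroblast growth factors, by 1.71. Ch25h, which makes 25-hydroxycholesterol, fell by 1.73, the ammonium transporter Rhcg by 1.61, the MAP kinase phosphatase Dusp2 by 1.57 and the cathepsin Ctsw by 1.46. The secretoglobin Scgb3a1 fell by 1.96, and its adjusted p of 0.0394 was 0.0561 without 3m replicate 4. Fbln5 (-1.12), a matrix protein, and Vcan (-1.12), the proteoglycan versican, were also lower, and midkine (Mdk) fell by 0.47 and was called higher at both ages than at the next. Vcan is also a marker of oligodendrocyte progenitors, whose factors Olig1 and Olig2 fell by 1.22 and 1.49. Olig2 had 16.6, 17.4, 19.5, 69.7 and 29.3 TPM at 3m and 68.1, 73.6, 78.3 and 79.6 TPM at P7, so that replicate 4 alone reached the P7 range. Of the other progenitor markers Bcas1 and Tnr rose, and 10 of 14 were not called. The list median was 0.62, above 0, with a range from -1.49 to 2.15.

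Some genes of Notch and hedgehog signalling were lower at 3m, but most were not called. Of 18 Notch genes, 4 fell and 0 rose: Hes1, Hes5, Hes6 and Dll4, with a list median of -0.18. Of 10 hedgehog genes, 2 fell and 0 rose, with a list median of -0.2. Among all genes, 14.5% were called higher and 9.68% lower. Hes1, a target that holds progenitors undifferentiated, had 42.6, 42.8, 47.2, 65.3 and 38.3 TPM at 3m and 84.5, 80.6, 91.6 and 89.3 TPM at P7. The groups did not overlap, and it fell by 0.88 ± 0.12 (SE, adjusted p = 3.53e-05). Hes5 fell by 0.87, Gli1 and Hhip, both hedgehog targets, by 0.69 and 0.66, and the BMP target Id1 by 0.78. Of the 24 progenitor genes 5 fell, Hes1, Hes5, Vim, Sox2 and Igfbp2, and 2 rose, Hopx and Msi1. Igfbp2, a secreted binder of insulin-like growth factors, averaged 881 ± 273 TPM at 3m (SD, n = 5) and 1533 ± 136 TPM at P7 (SD, n = 4), a fall of 0.86, and Hopx rose by 0.64. Map1b, a microtubule protein of growing neurites, rose by 1.4 among the 18 cytoskeletal genes, which gave 2 higher and 1 lower.

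Some genes of protein and sterol synthesis were lower at 3m. The shares over all genes were 14.5% called higher and 9.68% called lower. Of 46 cytosolic ribosomal protein genes 21 fell and 0 rose, with a median of -0.43 and a range from -0.73 to -0.13. Rpl6 had 165, 165, 150, 166 and 169 TPM at 3m and 255, 248, 227 and 235 TPM at P7, and fell by 0.56 ± 0.08 (SE, adjusted p = 5.13e-05), without overlap. Rpl27 fell by 0.73 and Rpl18 by 0.57. Ribosomal protein genes have many near-identical pseudogenes that could share their reads. The counts were 13 of 46 after median-of-ratios rescaling and 12 after quantile normalization. Of 24 cholesterol synthesis genes 7 fell and 0 rose, with a median of -0.31. Their summed level overlapped between the ages, with 2610 to 4450 TPM at 3m and 3950 to 4390 TPM at P7. The lowest 3m sums were those of replicates 4 (2610 TPM) and 5 (2800 TPM), and replicate 1 (4450 TPM) lay above every P7 library. Fdps, which makes farnesyl diphosphate, had 356, 252, 265, 183 and 204 TPM at 3m and 448, 442, 474 and 447 TPM at P7, and fell by 0.88 ± 0.15 (SE, adjusted p = 0.000189), but 1124 bases of its exons are shared with the predicted gene Gm43738 on the same strand, so its value is uncertain. Acat2 and Cyp51 fell by 0.81 and 0.76, and the same pathway gave 8 higher and 1 lower of 24 at P7 against P14. Atf4, a factor of the integrated stress response, fell by 0.66 ± 0.10 (SE, adjusted p = 7.28e-05). In glycolysis and glycogen metabolism 5 of 26 tested genes rose and 2 fell, Pfkp (1.02) and Ldha (-0.49) among them. Fatty acid oxidation and ketone genes gave 5 higher and 5 lower of 24, and respiratory chain genes 1 higher and 4 lower of 41.

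Counts for the other lists stand against the 14.5% of all genes called higher and 9.68% called lower. Collagen and basement membrane genes gave 0 calls of 24, and the 28 interferon-stimulated genes gave 1 higher and 0 lower. Of 16 complement genes 1 was higher and 1 lower, of 15 p53 targets 2 were higher and 1 lower, Bax (-0.46), and of 30 reactive astrocyte genes 0 were higher and 4 lower. Serine, glycine and folate enzymes gave 1 higher and 1 lower of 15, astrocyte transcription factors 1 higher and 4 lower of 24, and phagocytic receptors and ligands 1 higher and 2 lower of 14. Matrix proteoglycans and tenascins gave 2 higher and 4 lower of 16, genes of the postnatal growth programme 1 higher and 2 lower of 17, hedgehog genes 0 higher and 2 lower of 10, stress response genes 0 higher and 2 lower of 20, and immediate early genes 2 higher and 0 lower of 20.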

How the data were processed

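Polyadenylated RNA of 34 libraries was measured. The deposited values are TPM made by the authors, 1 column per library, each summing to 1000000. Tools listed in the submitters' processing notes are STAR 2.7.1a, RSEM 1.2.28, Trim Galore 0.6.4 and DESeq2 1.36.0, with build mm10 and no stated roles. Depth is unknown, so no counting interval is given. Of 20613 genes with values, 14590 reached 1 TPM in 3 or more libraries and entered the test on log2(TPM + 1) with limma 3.58.1 (trend and robust empirical Bayes, statmod 1.5.0, R 4.3.3), 1 mean per age. Benjamini-Hochberg adjustment covered all of these genes. The members, 43 gene lists and named genes were chosen with earlier results of these data known. The naming rule took the 15 largest rises and falls per direct and shared comparison, the 3 members of smallest p per list and a fixed set of cell cycle and astrocyte genes, 196 genes in all. Values are given for 133 of them, of which 22 have an exon overlapping another protein-coding gene. One named gene is not reported here. A few further genes are named by call only, from the counts of their lists. Positions are from GENCODE mouse release M21, promoters from RefSeq (GRCm38.p6). The method was tested on simulated data. Alternatives were another pseudocount, filters, rescaling, covariates, weights, a replicate block, other ages and leaving out each library. Figures used matplotlib 3.10.9 in Python 3.11.15.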

Additional observations from a re-analysis of the deposited data

Results flagged for a closer look

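Of 352 groups of library values examined, 21 held 1 library far from the others of its age. Chance flags about 1 in 20 such groups. At 3m, replicate 4 was the highest library for Top2a (14.8 TPM, next 10.6), Ccna2 (19.8, next 13.7), Ccnb2 (23.3, next 9.1), Vcan (7.02, next 3.74), Emp1 (18.9, next 9.03), Gas6 (212, next 110), Olig2 (69.7, next 29.3), Ak7 (45.5, next 20.6) and Ccdc153 (783, next 343). It was the lowest for the mean log2(TPM + 1) of respiratory chain genes (8.97, next 9.13). These genes include mitosis, progenitor and ciliary genes, and the same library had the highest ependymal and the lowest neuronal marker sum of its age. The part of these markers in its values was not tested.

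Other 3m libraries stood apart for single genes. Replicate 5 was highest for Mdk (378 TPM, next 327) and lowest for Thbs3 (37.1 TPM, next 56.9) and for the mean of astrocyte transcription factors (6.34, next 6.56). Replicate 3 was highest for Gjb6 (1100 TPM, next 637) and lowest for Rpl6 (150 TPM, next 165). Replicate 1 was highest for Dusp2 (2.49 TPM, next 1.32), and replicate 2 was lowest for Id1 (284 TPM, next 336). At P7, replicate 1 was highest for Timp1 (12.8 TPM, next 9.42), replicate 2 for Nrsn1 (5.41 TPM, next 3.33), replicate 3 for Lgi1 (7.06 TPM, next 4.86) and replicate 4 for Lin28b (0.379 TPM, next 0.0367).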

How the results depend on the processing

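The comparison of 3m with P7 called 2119 genes higher and 1413 lower, and 261 genes were higher and 84 lower in both neighbouring comparisons. Without a filter 3297 were higher. With means of at least 5 TPM 1055 were higher, and 169 were higher in both. Median-of-ratios rescaling gave 233 lower in both, and quantile normalization gave 2232 lower, with 146 higher and 178 lower in both. Fits of the ages compared alone gave 2139 lower, with 3 higher and 2 lower in both, and with P60 in place of 6m, chosen after seeing the data, 777 and 150. A fold of at least 2 gave 800 higher and 42 lower, with 25 and 7 in both. Array weights gave 3350 higher and 3059 lower. Leaving out 1 library gave 1630 to 2020 higher, 1034 to 1598 lower, 132 to 364 higher in both and 46 to 113 lower in both.

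Covariates turned round the most fold changes, and neuronal markers were among the covariates by construction. With neuronal, oligodendrocyte and endothelial means, 506 genes were lower, with 92 higher and 38 lower in both. The log2 fold changes of 3m over P7 that turned round were Aldoc -0.48, Cdk1 0.77, Ccnb1 0.77, Top2a 0.64, Mki67 0.18, Gfap 0.53, Aqp4 0.36, S100b -0.1, Cx3cr1 -0.27, Arc -0.36, Nefl -0.75, Gng13 -0.83, Rasgef1a -0.09, Mobp -0.48, Psd -0.42, Zfp365 -0.54, Mbp -0.83, Rims1 -0.45, Hpcal4 -0.65, Nrsn1 -0.6, Nrgn -0.55, Ddn -0.46, Slc17a7 -0.08 and Kif5a -0.97. With neuronal and ependymal means, chosen after seeing the data, 197 genes were higher and 278 lower, with 13 higher and 2 lower in both. Turned round there were Cdk1 0.83, Ccnb1 0.59, Top2a 0.29, Gfap 0.36, Nefl -1.11, Arc -0.53, Camk2a -0.63, Gng13 -0.71, Mobp -1.19, Psd -1.2, Zfp365 -1.12, Mbp -3.12, Rims1 -0.79, Id1 0.05, Hpcal4 -1.85, Nrsn1 -1.53, Map1b -0.05, Ddn -0.31, H2-Eb1 0.16, Scgb3a1 0.28, Kif5a -1.81 and Cbx6 -0.13.

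Replicate numbers were not taken to pair the samples, with correlations of same-numbered libraries between -0.046 and 0.069 for 3m and P7, -0.038 and 0.413 for 3m and 6m, and -0.214 and -0.039 for P7 and P14. A replicate block gave 2401 higher and 1440 lower, with 320 and 112 in both. Aqp4, not called in any of these, was 0.06 with the block and 0.03 under quantile normalization. Causes were not tested where the construction does not show them. Depth is unknown, and genes near 0 at P7 are the least certain.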
